A study of Mus musculus with 5 samples.

Results

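*Aif1*, *Apoe* and *P2ry6* are 3 genes that are often used to describe macrophages, and their transcripts were counted by RNA-seq in dendritic cells grown from bone marrow (BMDCs) of *Irf8*-OE and control mice. They are 3 of the 1355 genes in the deposited table, and all 3 had a value in all 5 samples. They were selected on the same values that are described here, since the authors' table holds only genes that had passed their thresholds for a difference between the groups. The levels and fold changes of the 3 genes are therefore given as a description, without a test. IRF8 is a transcription factor that monocytes and conventional type 1 dendritic cells need for their development.

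The *Irf8*-OE group held 3 samples and the control group 2. The *Irf8*-OE mice carried an *Irf8*-Flag cassette behind a CAG promoter and a loxP-flanked stop in the H11 locus, and a Cre under the *Itgax* (CD11c) promoter removed the stop, so that overexpression depended on cells that had used that promoter. The labels name the controls wild type, whereas the study's methods name them *Irf8* CAG-LSL, that is, mice with the cassette but without Cre. Mice were stated to be 8-week-old males on the C57BL/6 background. Marrow of both groups grew in 5 ng/ml GM-CSF and 200 ng/ml Flt3L, was replated on day 9 and was collected as non-adherent cells on days 15 to 16, and the labels give TNF-α stimulation for all 5 samples, used at 20 ng/ml. How many mice stood behind a sample is not stated, so the spread between samples may be technical in part.

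Allograft inflammatory factor 1, the product of *Aif1*, is better known as IBA1, a small calcium-binding protein that binds and bundles actin in membrane ruffles and phagocytic cups. Apolipoprotein E, the product of *Apoe*, coats lipoproteins, is a ligand of the LDL receptor family and takes up cholesterol that leaves macrophages through ABCA1. P2RY6 is a G protein-coupled receptor for UDP, a nucleotide that damaged cells release, and its signal through Gq promotes engulfment in phagocytes. Dendritic cells, macrophages and monocytes share part of this machinery, and the 3 genes are not exclusive to macrophages.

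*Aif1* (ENSMUSG00000024397) lies on chromosome 17, from 35170991 to 35176068 of mm10 on the minus strand. *Apoe* (ENSMUSG00000002985) lies on chromosome 7, from 19696109 to 19699188 on the minus strand. *P2ry6* (ENSMUSG00000048779) lies on the same chromosome and strand, from 100937630 to 100974649. No other gene of GENCODE M21 overlapped *Aif1* or *Apoe*, and 1 overlapped *P2ry6*, a plus-strand locus named *Gm44545* that awaits experimental evidence. Reads from both strands of that stretch cannot be told apart, since no strand setting is given in the sources used here.

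The RefSeq promoter table of GRCm38.p6 held 4 entries for 2 of the 3 genes, 1 for *Aif1* and 3 for *Apoe*. The sequences below are the 250 bases before the start of *Aif1* (chr17:35176053-35176302, minus strand) and before the outermost start of *Apoe* (chr7:19699189-19699438, minus strand). They are shown for the 2 genes with an entry, which were higher in *Irf8*-OE, as was *P2ry6*. IRF8 binds GAAA repeats, alone or next to the ETS factor PU.1, and its part in these fold changes was not tested. Capitals mark matches to the motifs searched.
Aif1: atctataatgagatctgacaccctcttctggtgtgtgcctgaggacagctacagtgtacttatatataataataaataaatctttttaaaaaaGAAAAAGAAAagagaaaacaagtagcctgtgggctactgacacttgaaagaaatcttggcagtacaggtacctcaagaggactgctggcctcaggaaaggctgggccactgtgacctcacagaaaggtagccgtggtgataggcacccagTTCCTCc
Apoe: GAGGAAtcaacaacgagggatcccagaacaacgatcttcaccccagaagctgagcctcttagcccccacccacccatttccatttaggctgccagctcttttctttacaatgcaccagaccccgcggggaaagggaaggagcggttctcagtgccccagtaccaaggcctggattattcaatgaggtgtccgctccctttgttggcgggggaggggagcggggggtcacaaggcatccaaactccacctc
The motifs were searched on both strands of the 250 bases, and matches were allowed to overlap. GAAANNGAAA, the core of the interferon-stimulated response element, occurred once before *Aif1*, from 157 to 148 bases before the start in a stretch made of A and G, and did not occur in the *Apoe* window. It occurred in 2.98% of the 32841 promoters of this length. GGAANNGAAA, the ETS-IRF composite element, was in neither window and in 2.30% of all promoters. GAGGAA, the core of a PU.1 site, was in both, from 7 to 2 bases before *Aif1* on the other strand and from 250 to 245 bases before *Apoe*, and in 23.3% of all promoters. The TATA box (TATAAA), the CCAAT box and the GC box (GGGCGG) were in neither of the printed windows, and in 12.4%, 33.9% and 32.7% of all promoters. Of the other starts of *Apoe*, the one at 19698621 had a TATA box match from 96 to 91 bases before it, and the one at 19698398 a PU.1 core from 132 to 127 bases before it. Bases G and C made up 43.6% of the *Aif1* window and 57.2% of the *Apoe* window, against a median of 52.4% over all promoters. A match of letters is a description and not a site of binding.

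The libraries set the frame for the values. The deposited values are normalized counts, that is, reads scaled by a size factor for each sample, and whole reads could be recovered from 100% of them in every sample (to within 0.001 of a read). Reads on listed genes numbered 901597 and 1062127 in the controls and between 646123 and 689416 in *Irf8*-OE. These totals cover a part of each library, so the full depth is unknown. *Irf8* itself had 2835 and 2747 normalized counts in the controls and 7141, 6519 and 6021 in *Irf8*-OE. *Xist* was at 10772 to 13476 normalized counts in *Irf8*-OE and at most at 1.12 in the controls, while *Ddx3y*, *Eif2s3y*, *Kdm5d* and *Uty* on the Y chromosome were at 0 in every *Irf8*-OE sample, whereas control samples held 484 to 1385 normalized counts of each, although all mice were stated to be male. A difference of sex and one of genotype cannot be told apart in any result given here.

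All 3 genes were higher in every *Irf8*-OE sample than in every control, as were 58.8% of the 1355 listed genes. *Apoe* had the largest fold change of the 3, *Aif1* came close to it at a lower level, and *P2ry6* had the smallest fold change and the most even *Irf8*-OE samples. The comparison sets *Irf8*-OE against control samples of activated BMDCs, which differed in sex-linked genes as well as in genotype.

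*Apoe* had 264 and 307 normalized counts in the 2 controls and 2364, 2178 and 1791 in the 3 *Irf8*-OE samples. The groups were far apart, and the lowest *Irf8*-OE sample lay 5.83-fold above the highest control. The mean was 286 ± 30.4 (SD, n = 2) in the controls and 2111 ± 292 (SD, n = 3) in *Irf8*-OE, a 7.39-fold difference. On the scale log2(normalized counts + 1), limma gave a log2 fold change of 2.88 with a standard error of 0.13. The first *Irf8*-OE sample was the highest and the third the lowest, and their 95% Poisson intervals of 2271 to 2459 and 1709 to 1876 normalized counts did not overlap, so that these libraries differed by more than the counting error.

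*Aif1* had 58.4 and 61.4 normalized counts in the controls, from 52 and 64 reads, and 448, 371 and 344 in *Irf8*-OE, from 343 to 467 reads. The controls were nearly equal, and the third *Irf8*-OE sample was again the lowest of its group, 5.61-fold above the highest control. The mean was 59.9 ± 2.10 (SD, n = 2) in the controls and 388 ± 53.6 (SD, n = 3) with *Irf8* overexpression, a 6.47-fold difference, with a log2 fold change of 2.66 (standard error 0.14). With the fewest reads, *Aif1* had the largest counting error of the 3 genes relative to its level. The Poisson interval of its first control ran from 43.6 to 76.6 normalized counts. Poisson intervals cover the counting error only.

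*P2ry6* had 560 and 509 normalized counts in the controls and 1482, 1405 and 1471 in *Irf8*-OE. The lowest *Irf8*-OE sample lay 2.51-fold above the highest control. Control samples averaged 534 ± 36.1 (SD, n = 2) and *Irf8*-OE samples 1453 ± 41.6 (SD, n = 3), a 2.72-fold difference, with a log2 fold change of 1.44 (standard error 0.07). Its *Irf8*-OE samples lay within the counting error of each other, with Poisson intervals that together ran from 1335 to 1558 normalized counts and overlapped in all pairs. The coefficient of variation within *Irf8*-OE was 2.86% for *P2ry6*, and 13.8% for both *Aif1* and *Apoe*.

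**Figure D1:**
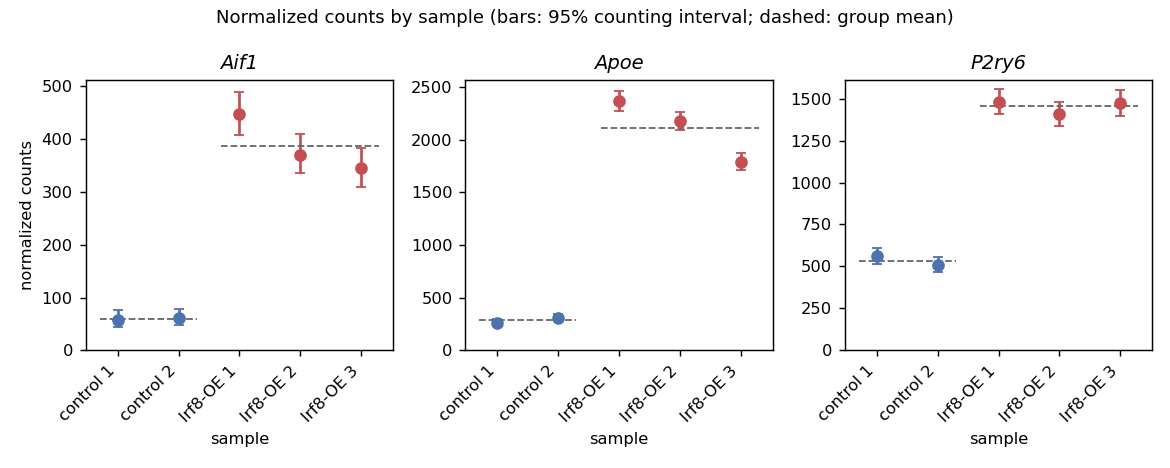
Normalized counts (vertical axes, from 0) of *Aif1*, *Apoe* and *P2ry6* in each control (blue) and *Irf8*-OE (red) sample, with the 95% Poisson interval as bars and the group mean as a dashed line. Each *Irf8*-OE sample lies above both controls, and the third *Irf8*-OE sample is the lowest of its group for *Aif1* (344) and *Apoe* (1791) but not for *P2ry6* (1471).

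Over the whole table, 99.1% of the 1355 genes passed limma's adjusted p of 0.05 together with an absolute log2 fold change of 1, and 58.1% passed as higher in *Irf8*-OE. The 3 genes were among them, and nothing is read from this, because the table holds the authors' calls on the same samples. Among the 797 listed genes that were higher, the fold change of *Apoe* stood at rank 167, that of *Aif1* at rank 213 and that of *P2ry6* at rank 525. The median log2 fold change of these 797 genes was 1.81, with quartiles of 1.28 and 2.71, so that *Apoe* lay above the upper quartile, *Aif1* just under it and *P2ry6* under the median.

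Levels of different genes were compared per kb of the gene length that the authors' table gives. In the controls *P2ry6* had the highest level, 185 ± 12.5 normalized counts per kb (SD, n = 2), followed by *Apoe* with 134 ± 14.2 and *Aif1* with 39.1 ± 1.37. In *Irf8*-OE the order was *Apoe* with 987 ± 137 normalized counts per kb (SD, n = 3), *P2ry6* with 503 ± 14.4 and *Aif1* with 253 ± 34.99. The first and the second place were thus exchanged between the groups, and this held in every sample. The level of *Apoe* per kb was 0.637 and 0.815 times that of *P2ry6* in the controls, and 2.15, 2.09 and 1.64 times in *Irf8*-OE. The ratio of *Apoe* to *Aif1* moved little, from 3.24 and 3.58 in the controls to 3.78, 4.21 and 3.72 in *Irf8*-OE. The groups did not overlap for it either, but the control ratios rest on 52 and 64 *Aif1* reads. Nothing is read from the gap between 3.58 and 3.72.

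**Figure D2:**
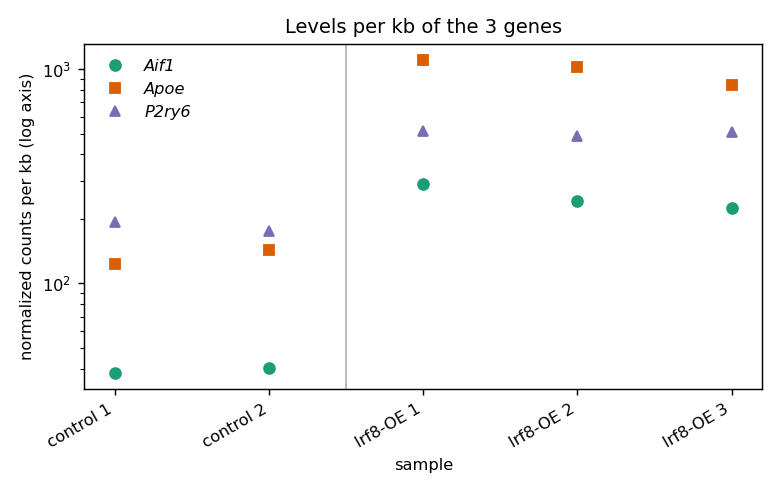
Level per kb of gene length (log axis, normalized counts per kb) of *Aif1* (circles), *Apoe* (squares) and *P2ry6* (triangles) in the 2 controls, left of the line, and the 3 *Irf8*-OE samples. *P2ry6* is above *Apoe* in both controls, and *Apoe* is above *P2ry6* in all 3 *Irf8*-OE samples.

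A list of 34 other macrophage markers had 10 genes in the table, of which 10 were called higher and 0 lower in *Irf8*-OE, in a table where 58.1% of genes were called higher. Their median log2 fold change was 1.93, close to the 1.81 of all 797 higher genes, and that of all listed genes in both directions was 1.14. The other 24 were not in the table, which holds only genes that had passed the authors' thresholds, so they have no values here. *Axl*, a receptor for apoptotic cells, had 2795 and 2746 normalized counts in the controls and 8727, 8743 and 8882 in *Irf8*-OE. *C1qb*, *C1qc* and *C1qa*, the chains of complement C1q, had log2 fold changes of 2.19, 2.46 and 3.72. Summed over the 10 markers, the level was 9033 to 9156 normalized counts in control samples, against 35677 to 39718 in *Irf8*-OE, and no marker was at 0 in any sample. In bulk samples, more cells of a type and more RNA per cell cannot be told apart, and the part of macrophage-like cells in the values of *Aif1*, *Apoe* and *P2ry6* was not tested.

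Placed among these 10 markers by level per kb in *Irf8*-OE, *Apoe* was at rank 6 of 13 genes, below *Axl* with 1745 ± 17.0 normalized counts per kb (SD, n = 3). At rank 7, *P2ry6* had 487 to 513 normalized counts per kb in single samples, which overlapped with the 472 to 499 of *Fcgr1*, the gene of the Fc receptor CD64, named as its neighbour in this order. At rank 10, *Aif1* had 225 to 292 normalized counts per kb, which overlapped with the 200 to 232 of *Stab1*, a scavenger receptor. In the controls *P2ry6* was at rank 6, *Apoe* at 9 and *Aif1* at 11. By fold change, *Apoe* and *Aif1* were at ranks 2 and 3 after *C1qa*, and *P2ry6* was at rank 10.

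For *Apoe*, other genes of lipid metabolism were counted. Of 50 apolipoprotein, lipoprotein receptor and cholesterol genes, 5 were listed, 3 higher and 2 lower in *Irf8*-OE, with a median log2 fold change of 1.41. This split is near the 58.1% called higher in the whole table, and nothing about these genes is read from it. No other apolipoprotein gene of the list was in the table. *Abca1*, the transporter that loads cholesterol onto apolipoproteins, had 446 and 459 normalized counts in the controls and 1143, 1244 and 1224 in *Irf8*-OE, a log2 fold change of 1.41 (standard error 0.07). *Pltp*, the phospholipid transfer protein, had a log2 fold change of 1.47. *Lpl*, which encodes lipoprotein lipase, was the most abundant and was lower, with 13849 and 13759 normalized counts in the controls and 5591, 6972 and 7359 in *Irf8*-OE. *Olr1*, a scavenger receptor for oxidized LDL, had a log2 fold change of -1.33. *Vldlr*, a receptor that binds apolipoprotein E, was the fifth listed gene and was named after its values were seen, with 19.1 and 25.9 normalized counts in the controls and 152, 134 and 172 in *Irf8*-OE.

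For *P2ry6*, genes of the purinergic system were counted. Of 30 other nucleotide and adenosine receptors, ecto-nucleotidases and related genes, 5 were listed, 2 higher and 3 lower, with a median log2 fold change of -1.13, where 58.1% of all listed genes were called higher. *P2ry1*, an ADP receptor, had 850 and 846 normalized counts in the controls and 299, 374 and 409 in *Irf8*-OE, a direction opposite to that of *P2ry6*. *Adora3*, an adenosine receptor, and *P2rx1*, an ATP-gated channel, had log2 fold changes of -1.36 and -1.13. *Nt5e*, which encodes the enzyme CD73 that makes adenosine from AMP, was higher, with a log2 fold change of 1.85. *P2ry12*, another ADP receptor and the fifth gene, was named after its values were seen, and had 23.6 and 22.1 against 47.9, 84.0 and 62.3 normalized counts. Of 24 genes of Gq signalling, on which P2RY6 acts, 5 were listed, 2 higher and 3 lower, with a median log2 fold change of -1.001. *Rgs1*, a regulator that shortens G protein signals, had a log2 fold change of 1.09, while *Rgs18* and *Gna14*, a Gq family subunit, had values of -1.17 and -2.71. *Prkcb*, a protein kinase C gene, had a mean of 2884 normalized counts in control samples and 1442 in *Irf8*-OE samples.

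For *Aif1*, actin genes related to the function of IBA1 were counted. Of 39 genes of actin bundling, ruffling and the phagocytic cup, 4 were listed, 2 higher and 2 lower, near the split of the whole table (58.1% called higher). Their median log2 fold change was 0.14, against 1.14 over all listed genes. *Aif1l*, the paralog of *Aif1*, had 37.1 and 42.2 normalized counts in the controls and 11.5, 15.9 and 19.1 in *Irf8*-OE, so that it was lower in the group in which *Aif1* was higher. *Fscn1*, which encodes the actin bundler fascin of mature dendritic cells, had 4207 and 3985 against 12663, 12138 and 12704 normalized counts. *Scin*, an actin-severing protein, had a log2 fold change of -2.04, and *Pls1*, a plastin, one of 2.83. Of 25 genes for the uptake of apoptotic cells, 6 were listed, 5 higher and 1 lower, with a median log2 fold change of 2.23, against the same 58.1% called higher over all listed genes. The median was 2.07 without *Havcr1*, a gene with 0 reads in 1 control that was named after its values were seen. *Axl*, *Stab1* and *Scarf1* of that list had log2 fold changes of 1.66, 2.07 and 2.40, and *Cd300lb* of -1.32. *Axl* and *Stab1* are also in the macrophage list.

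**Figure D3:**
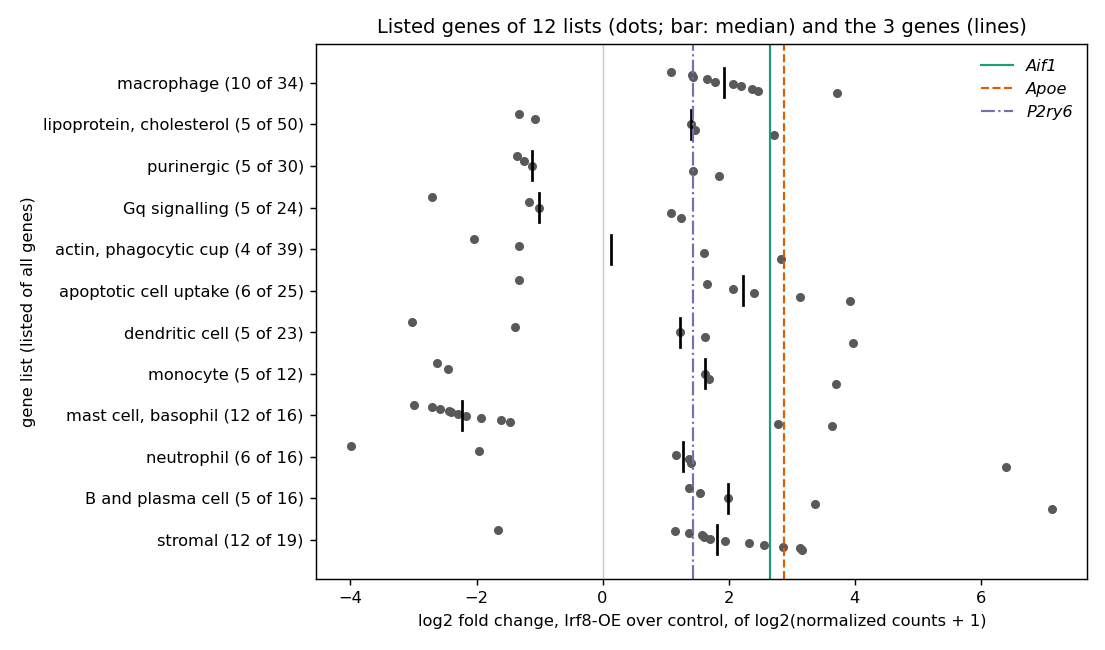
Log2 fold change of *Irf8*-OE over control (horizontal axis, of log2(normalized counts + 1)) for the listed genes of 12 gene lists, with the median of each list as a black bar and the values of *Aif1* (2.66), *Apoe* (2.88) and *P2ry6* (1.44) as vertical lines. The 10 listed macrophage markers are all above 0, as are the 5 of the B and plasma cell list and 11 of 12 stromal markers. The purinergic, lipid and actin lists lie on both sides of 0.

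Listed markers of other cells differed between the groups too, as the selection of the table requires of its genes. Of 16 mast cell and basophil markers, 12 were listed, 2 higher and 10 lower. The counts of this and the following lists stand beside 58.1% called higher in the whole table. The summed mast cell and basophil level was 258670 to 263092 normalized counts in control samples, against 39881 to 44318 in *Irf8*-OE. *Cpa3*, a mast cell protease, made up 17.3% and 17.6% of reads on listed genes in the control samples, against 3.18% to 3.74% in *Irf8*-OE, and dominated that sum. The 2 higher genes were the basophil proteases *Prss34* and *Mcpt8*, with log2 fold changes of 3.64 and 2.79, named after their values were seen. Monocyte markers had 5 of 12 listed, 3 higher and 2 lower, neutrophil markers 6 of 16, 4 higher and 2 lower, B and plasma cell markers 5 of 16, all higher, and stromal markers 12 of 19, 11 higher and 1 lower. The summed stromal level was 4891 to 5086 normalized counts in control samples, against 15528 to 16982 in *Irf8*-OE, and that of the B and plasma cell markers was 37.1 to 43.2 and 429 to 458. The part of these differences in the values of *Aif1*, *Apoe* and *P2ry6* was not tested.

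For the labelled cell type, 5 of 23 dendritic cell markers were listed, 3 higher and 2 lower, in a table with 58.1% called higher. One of the higher genes was the overexpressed *Irf8* itself, and without it 2 were higher and 2 lower. The other 18 markers, *Itgax* and *Zbtb46* among them, were not in the table and have no values here. *Itgae*, which encodes CD103, had 50.6 and 52.8 normalized counts in the controls and 164, 144 and 178 in *Irf8*-OE. *Cd24a*, which marks type 1 dendritic cells among other cells, had a log2 fold change of -1.38, and *Cd209a*, a lectin of monocyte-derived and type 2 dendritic cells, one of -3.03. *Siglech*, a plasmacytoid marker named after its values were seen, had 0 reads in both controls and 14.4, 14.9 and 15.1 normalized counts in *Irf8*-OE.

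Profiles over the 5 samples were compared by the root mean square difference of log2(normalized counts + 1), each gene centred on its own mean, with 610 listed genes of mean 100 normalized counts or more. The nearest to *Aif1* were *C1qc* (0.11), *Col3a1*, a fibrillar collagen (0.13), and *Apoe* itself (0.13). The nearest to *Apoe* were *Col3a1* (0.11), the interferon-induced *Rtp4* (0.12) and *Tcaf2*, a channel-associated factor (0.12), with *Aif1* at rank 4. *P2ry6* was nearest to *Tln2*, a talin of cell adhesion (0.03), *Mdm1* (0.04) and *Csf3r*, the G-CSF receptor (0.04). From *P2ry6*, *Aif1* stood at rank 276 and *Apoe* at rank 283, at distances of 0.61 and 0.72. The profiles of *C1qc* and of *Apoe* shared the order of the *Irf8*-OE samples, the first being the highest, with 6626, 5893 and 4910 normalized counts for *C1qc*. The first *Irf8*-OE sample was the highest of the 3 for 4 of the 10 listed macrophage markers, and for 35.6% of all listed genes. The third was the lowest for 4 of the 10 markers, and for 31.1% of all listed genes. Only 5 samples and 1 contrast stand behind these distances.

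Listed genes that start near each of the 3 genes were counted. Within 500 kb of the start of *Aif1*, in the class III region of the major histocompatibility complex, GENCODE M21 annotates 64 protein-coding genes. There, 6 genes were listed, 4 higher and 2 lower, in a table where 58.1% of genes were called higher. *Ltb*, which encodes lymphotoxin beta and starts 18.4 kb upstream, had 110 and 106 normalized counts in the controls and 458, 448 and 387 in *Irf8*-OE. *Lta*, its neighbour that encodes lymphotoxin alpha, went the other way, with 89.9 and 120 against 11.5, 16.8 and 21.1 normalized counts. *C4b* and *Cfb*, complement genes 432 and 314 kb downstream, had log2 fold changes of 2.58 and 1.55. *C4b* shares near-identical sequence with a neighbouring copy, so that its counts are uncertain. *Hspa1b*, a heat shock gene with a near-identical copy too, had 1.33, and *Sapcd1* had -2.82.

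Around *Apoe*, 44 protein-coding genes started within 500 kb and 4 were listed, all downstream of it. Of these, 3 were higher and 1 lower, beside the 58.1% called higher in the whole table. *Fosb*, an immediate early gene 389 kb away, had 176 and 134 normalized counts in the controls and 3604, 3226 and 3243 in *Irf8*-OE, a larger log2 fold change (4.44) than that of *Apoe*. *Nkpd1* had a log2 fold change of -1.87, and *Ppm1n* had 14.6 and 10.6 against 36.4, 33.6 and 41.2 normalized counts. *Exoc3l2* had 1.12 and 1.92 normalized counts in the controls, under the floor of 3 reads in both, and 19.2, 8.40 and 11.0 in *Irf8*-OE. The apolipoprotein C genes beside *Apoe* were not among the listed genes. Around *P2ry6*, 16 protein-coding genes started within 500 kb and 0 of them were listed. The share of all annotated genes that was listed is not given here, so nothing is read from the counts around the 3 genes.

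**Figure D4:**
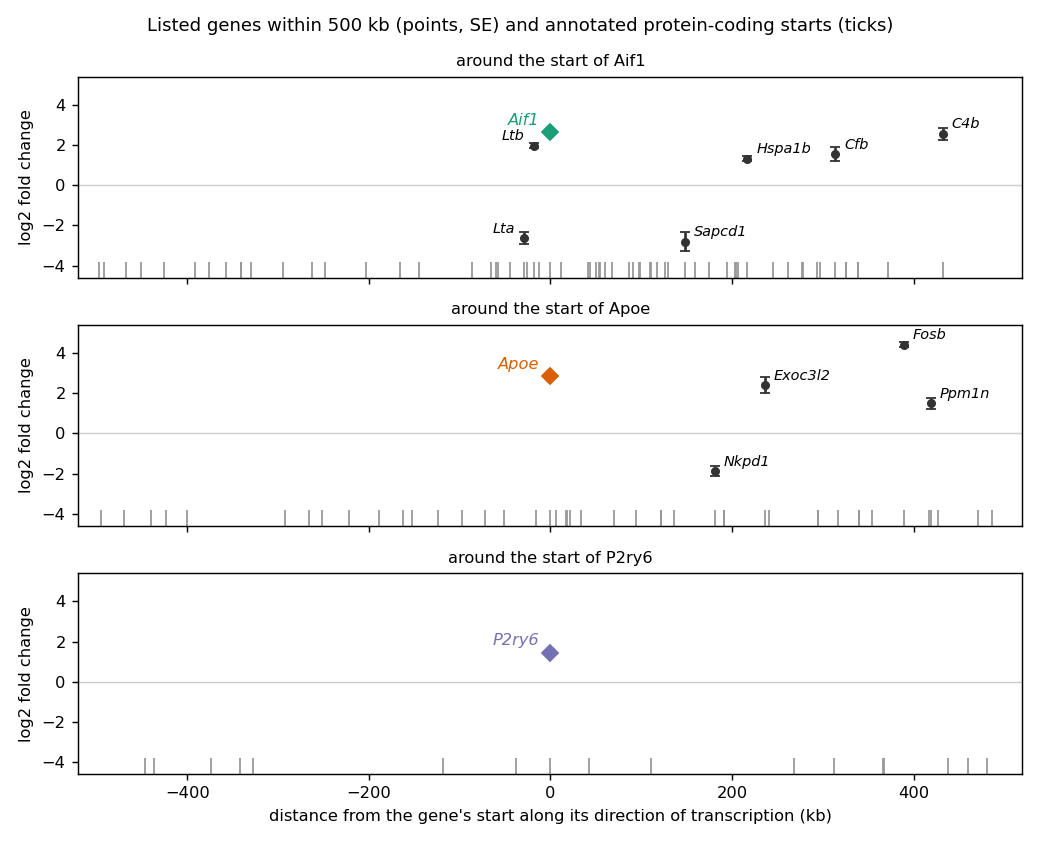
Log2 fold change with its standard error (vertical axis) of listed genes whose start lies within 500 kb of *Aif1*, *Apoe* or *P2ry6*, against the distance in kb along the direction of transcription. Grey ticks are annotated protein-coding starts, most of which have no listed gene, and the panel of *P2ry6* holds 0 listed genes besides itself.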

How the data were processed

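RNA-seq was performed on 2 control and 3 *Irf8*-OE samples of BMDCs, grouped by the sample titles. Per the labels, fastp, HISAT2 2.0.5, featureCounts 1.5.0-p3, DESeq2 1.20.0 and edgeR 3.22.5 were used with mm10, with no role given. The authors deposited signal values that are normalized counts (reads scaled by a size factor) of 1355 genes that had passed their thresholds, besides group means, log2 fold changes and p-values of the authors' own comparison, which were not used. Of the identifiers, 1354 were in GENCODE M21 (GRCm38) and 1313 had the same start and end there.

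Each gene was fitted with limma 3.58.1 (R 4.3.3, trend) on log2(normalized counts + 1), which understates changes of low genes, over all 1355 genes without covariates. The standard errors are moderated, that is, drawn toward a trend over these preselected genes. The pooled SD within groups on this scale was 0.16 for *Aif1*, 0.19 for *Apoe* and 0.066 for *P2ry6*. Genes were called where the Benjamini-Hochberg adjusted p was under 0.05 and the log2 fold change was above 1 or below -1. With 3 samples against 2, no exact permutation test can go below 0.1 (one-sided). Alternatives were pseudocounts of 0.1 and 10, quantile normalization, a filter (10 or more normalized counts throughout 1 group), edgeR 4.0.16 and DESeq2 1.42.0 on recovered reads, the replicate number as a block, other thresholds, and each sample left out in turn. The third *Irf8*-OE sample, where 1 read is worth 1.004 normalized counts, is too near 1 for an automated check of recovered reads, and tests on reads were added without it. Fits were tested on simulated data in which most genes did not differ between the groups, unlike the listed genes here.

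The 3 genes and the gene lists were chosen with earlier results of these data known. Named genes were the 3 genes, *Irf8*, sex-linked genes, up to 4 of the most abundant listed genes of each list, the 3 nearest profiles and listed genes within 500 kb. Outside this rule, *Fcgr1*, *Vldlr*, *P2ry12*, *Havcr1*, *Siglech*, *Prss34* and *Mcpt8* were named after their values were seen. One listed macrophage marker is counted but not reported here by name.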

Additional observations from a re-analysis of the deposited data

How the results depend on the processing

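*Apoe* kept its log2 fold change within the spread between replicates under all 15 alternatives, from 2.77 to 3.03. *Aif1* did so under 13 of 15 and moved to 2.50 with a pseudocount of 10 and to 2.48 after quantile normalization. *P2ry6* did so under 12 of 15, with 1.55 after quantile normalization and between 1.37 and 1.51 when single samples were left out, the ends coming from the 2 controls. The filter removes other genes and could not change a gene's own fold change. The blocks by title and by description number gave the same fold changes as leaving out the third and the first *Irf8*-OE sample. The 15 alternatives are therefore not 15 separate checks. *Irf8* moved from 1.23 to 1.75 after quantile normalization. That scaling lowered the median of all listed genes by 0.36, and a pseudocount of 10 lowered it by 0.15, and the cause of these moves was not tested. After quantile normalization the value of *Apoe* was higher than reported and that of *Aif1* lower. None of the 3 genes changed direction under any of these settings. The number of listed genes called was 1343 and stayed within 1.5 times of that under 16 of 17 alternatives, but was 518 at an absolute log2 fold change of 2, at which *P2ry6* would not be called. Tests on recovered reads called 1353 (edgeR) and 1354 (DESeq2) genes, and 1322 and 1304 without the third *Irf8*-OE sample, an alternative chosen after seeing the data. With the number in the titles as a replicate block, the log2 fold changes of *Aif1*, *Apoe* and *P2ry6* were 2.74, 2.99 and 1.43, and 1319 genes were called. With the number in the descriptions as the block, 1271 were called. Deviations of same-numbered samples correlated between -0.021 and 0.021 over 611 genes. With 2 controls, the deviations of the controls mirror each other, so these values cannot show whether same-numbered samples were paired. Depth limits *Aif1* most, with 52 reads in the first control.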
